A study of Mus musculus with 12 samples.

Results

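The 10 genes described here mark cancer-associated fibroblasts and pericytes, and were measured in 12 MC38 tumors. The genes were the platelet-derived growth factor (PDGF) receptors Pdgfra and Pdgfrb, the contractile genes Acta2 and Tagln, the surface proteins Fap, Pdpn and Thy1, and the matrix genes Dcn, Lum and Postn. They were picked by symbol from a table of 23282 lines, and all 10 had 1 line each and passed the filter on low counts that left 13464 genes to test. MC38 is a mouse colon carcinoma line, implanted here subcutaneously in the right flank of wild-type female C57BL/6 mice. The mice were aged 6 weeks at purchase and were then acclimated for 1 week. Con mice received saline vehicle and IgG2a. SFIH mice received IgG2a and a sesquiterpene lactone-rich hexane fraction of the root of Inula helenium at 50 mg/kg by daily intraperitoneal injection. PD mice received 200 μg of anti-PD-1 antibody 2 times a week, and Comb mice both the fraction and the anti-PD-1 antibody. Each group held 3 tumors taken on day 19, and RNA came from whole tumor tissue, although the labels call the source tumor cells.

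Fibroblasts build the collagen and proteoglycan network of a tumor, and pericytes wrap its small vessels. Both kinds of cell carry PDGF receptors, through which PDGF ligands from tumor, endothelial and immune cells drive their growth and recruitment. Fibroblasts that turn contractile gain smooth muscle actin and its partners, and activated fibroblasts in tumors commonly carry Fap, Pdpn and Thy1 on the surface. Most of these genes are not exclusive to fibroblasts. Mouse T cells carry Thy1, lymphatic endothelium and some macrophages carry Pdpn, and smooth muscle and pericytes carry Acta2 and Tagln. In bulk RNA, fewer cells of a type and less RNA per cell cannot be told apart.

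The tumors had 7870741 to 12261032 counts each, with a median of 9932321. The third Comb tumor stood apart from the other 11. Its median Pearson correlation with them over tested genes was 0.712, against 0.934 for the second Comb tumor and 0.956 to 0.976 for the other tumors. Skeletal muscle markers, a list of 13 genes of fast muscle fibers, summed to 7413 CPM (read counts scaled to a library total of 1000000) in the third Comb tumor, 873 in the first Comb tumor, 186 in PD replicate 1 and 10.9 to 68.5 in the other 9. Adipocyte markers summed to 2425 CPM in the third Comb tumor, 677 in the second and 148 to 288 in the other 10. Skin keratinocyte markers summed to 435 CPM in the third Comb tumor, with none of the 11 genes at 0 there or in SFIH replicate 1, and to 8.79 to 60.0 elsewhere. Of the 12 epithelial carcinoma markers, which include Cdh1 and Krt8, the sum was 5.22 to 27.8 CPM in 11 tumors and 141.5 in the third Comb tumor, and 1 to 4 of them were at 0 in each tumor. Results are therefore given with and without this tumor. Rn45s, the ribosomal RNA precursor, took 17.1% of counts in PD replicate 2, which also had the fewest counts, 14.1% in the second Comb tumor and 4.28% to 10.3% in the other 10.

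**Figure D1:**
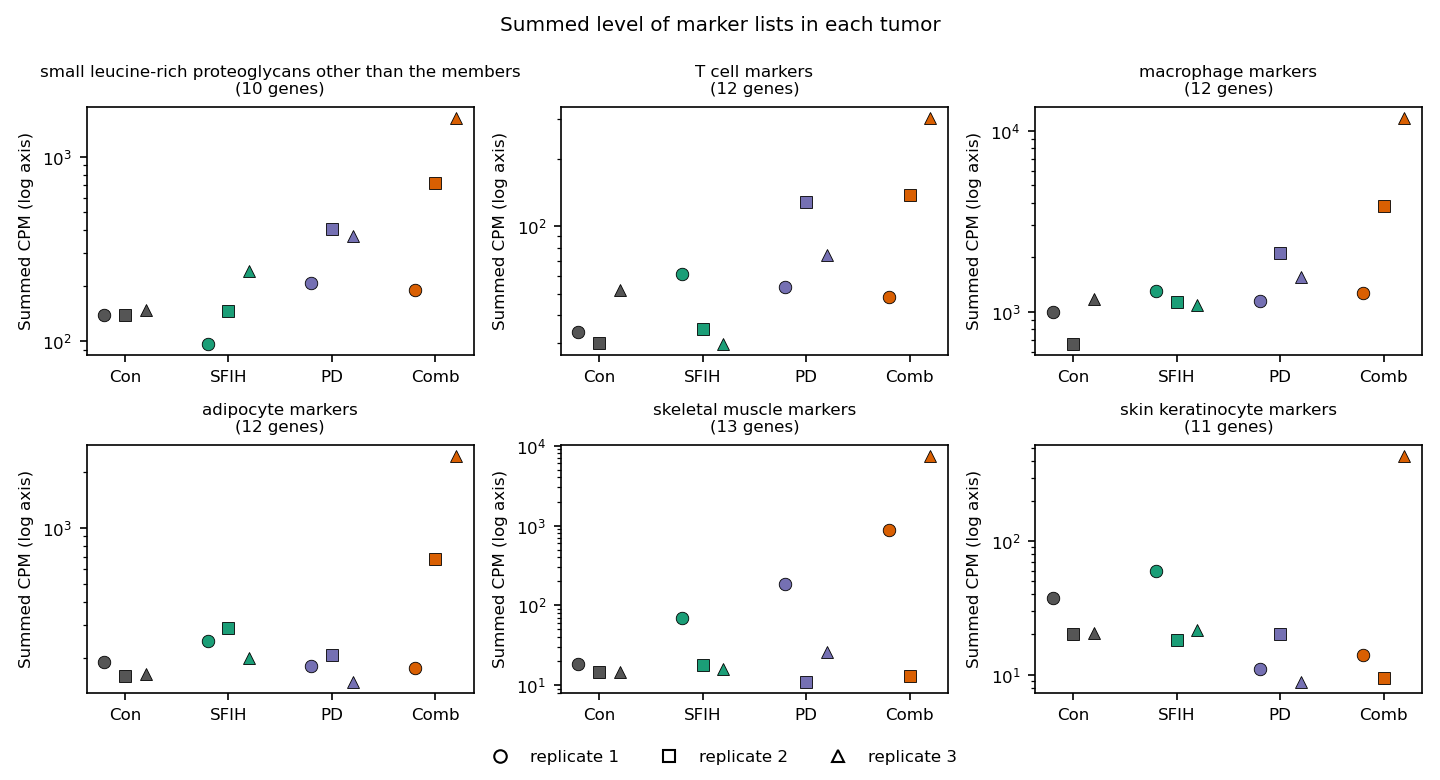
Summed CPM of 6 marker lists in each tumor, on log axes, with symbols for the replicates of the 4 groups. The third Comb tumor is the highest of 12 in every panel, and the second Comb tumor is next highest for proteoglycans, T cells, macrophages and adipocytes but at 12.9 CPM for skeletal muscle.

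The PDGF receptor genes had lower estimates in Comb than in Con, with 95% intervals that included 0. Pdgfra encodes the receptor that marks most fibroblasts and binds PDGF-A and PDGF-C. Con tumors had 76.2, 84.9 and 71.4 CPM of it, SFIH tumors 48.1, 96.3 and 89.1, PD tumors 128, 46.6 and 121, and Comb tumors 56.1, 61.2 and 43.3. All 3 Comb tumors lay below all 3 Con tumors, whereas PD held both the highest and the second lowest value of the 12 tumors. Pdgfrb encodes the PDGF-B receptor, the usual marker of pericytes. Its CPM was 32.5, 38.1 and 59.5 for Con, 28.7, 57.5 and 33.2 for SFIH, 54.2, 17.0 and 53.4 for PD, and 24.7, 21.9 and 17.9 for Comb. Every Comb tumor was below every Con and every SFIH tumor, and only PD replicate 2, at 17.0 CPM, was lower than the third Comb tumor. Of all tested genes, 22.2% were lower without overlap in Comb against Con and 14.9% in Comb against SFIH. The log2 fold change of Comb against Con was -0.27 ± 0.35 (SE) for Pdgfra and -0.74 ± 0.39 for Pdgfrb, with edgeR adjusted p of 0.617 and 0.253 and 95% intervals of -0.96 to 0.41 and -1.50 to 0.02. Without the third Comb tumor these were -0.23 and -0.72. With normalization factors applied to the CPM, the Comb and Con values of Pdgfra overlapped. SFIH and PD against Con gave 0.01 ± 0.35 and 0.42 ± 0.35 for Pdgfra and -0.12 ± 0.38 and 0.02 ± 0.38 for Pdgfrb.

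Of the contractile genes, Acta2 was separated from Con in every treated group on CPM and Tagln in 2 of 3, and edgeR called neither with all tumors included. Acta2, which encodes smooth muscle actin, had 12.96, 17.3 and 17.8 CPM in the Con tumors. The SFIH tumors had 29.8, 31.1 and 65.2, the PD tumors 20.2, 58.3 and 31.0, and the Comb tumors 31.0, 83.9 and 41.1. The lowest of the 9 treated tumors was above the highest Con tumor. Tagln encodes transgelin, an actin-bundling protein of smooth muscle. Con showed 8.85, 6.87 and 8.68 CPM, SFIH 10.5, 12.1 and 12.7, PD 7.31, 25.5 and 11.8, and Comb 9.21, 17.5 and 15.4. SFIH and Comb lay wholly above Con for Tagln, and PD did not, because its first replicate fell within the Con range. The log2 fold change of Acta2 was 1.42 ± 0.52 for SFIH, 1.32 ± 0.52 for PD and 2.0 ± 0.53 for Comb, each against Con, with edgeR adjusted p of 1.0, 1.0 and 0.0686. Without the third Comb tumor the Comb value was 2.06 ± 0.55, so the difference was as large without that tumor. The SFIH value was 0.86 without SFIH replicate 3, and the PD value 0.73 without PD replicate 2. Tagln differed by 0.53 ± 0.46, 1.0 ± 0.46 and 1.10 ± 0.46 in the same comparisons, and its PD value was 0.28 without PD replicate 2. Acta2 has close relatives among the actin genes, and how reads were shared between them is not given in the sources used here. Acta1, the actin of skeletal muscle, was at 1927 CPM in the third Comb tumor, 197 in the first and 0.305 in the second. The part of Acta1 reads in the Acta2 values was not tested.

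The surface proteins had their highest levels in the third Comb tumor, and the first Comb tumor was near Con for Fap and Thy1. Fap encodes a prolyl peptidase of activated fibroblasts and was the scarcest member by count, with 16 to 52 counts in each Con tumor. In CPM, Con tumors had 2.92, 1.67 and 5.19, SFIH tumors 3.83, 3.63 and 7.26, PD tumors 1.83, 7.37 and 3.56, and Comb tumors 4.76, 17.3 and 62.2. The first Comb tumor lay inside the Con range and the other two lay above the other 10 tumors. Pdpn encodes podoplanin, a mucin-like membrane protein, and read 35.6, 34.5 and 26.0 CPM for Con, 29.3, 27.3 and 43.3 for SFIH, 32.2, 55.3 and 42.2 for PD, and 54.1, 86.4 and 172 for Comb. All Comb tumors exceeded all Con and all SFIH tumors, and PD replicate 2 was just above the first Comb tumor. Thy1 encodes a small anchored surface glycoprotein of fibroblasts and T cells. The 3 Con tumors had 21.8, 18.1 and 22.0 CPM, the SFIH tumors 39.6, 22.4 and 34.1, the PD tumors 29.8, 69.5 and 33.2, and the Comb tumors 25.1, 68.7 and 203. Every treated tumor was above every Con tumor, although SFIH replicate 2 cleared the highest Con value only narrowly and fell among them once normalization factors were applied.

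Acta2 and Thy1 were the only 2 of the 10 members for which all 9 treated tumors exceeded all 3 Con tumors on CPM, a pattern held by 0.602% of tested genes. No member had the opposite pattern, which 1.94% of tested genes had. The T cell list, 12 genes such as Cd3d, summed to 30.0 to 52.0 CPM for Con tumors, 29.8 to 61.4 for SFIH tumors, 53.2 to 128 for PD tumors and 48.0 to 304 for Comb tumors, with no gene at 0 in any tumor. The tumors with the most T cell markers were the third Comb tumor at 304 CPM, the second at 137 and PD replicate 2 at 128, which were also the 3 highest for Thy1. Macrophage markers, 12 genes led by C1qb, summed to 665 to 1174 CPM for Con tumors, 1088 to 1297 for SFIH tumors, 1145 to 2126 for PD tumors and 1271 to 11750 for Comb tumors, and the second Comb tumor had 3839. Lymphatic endothelial markers, 6 genes, summed to 8.68 to 38.7 CPM in Con tumors, 13.9 to 67.6 in SFIH tumors, 30.24 to 40.01 in PD tumors and 37.2, 61.1 and 161 in Comb tumors, with 3 to 4 of them at 0 in the Con tumors and 1 to 3 in the Comb tumors. The part of these cells in the Thy1 and Pdpn values was not tested.

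**Figure D2:**
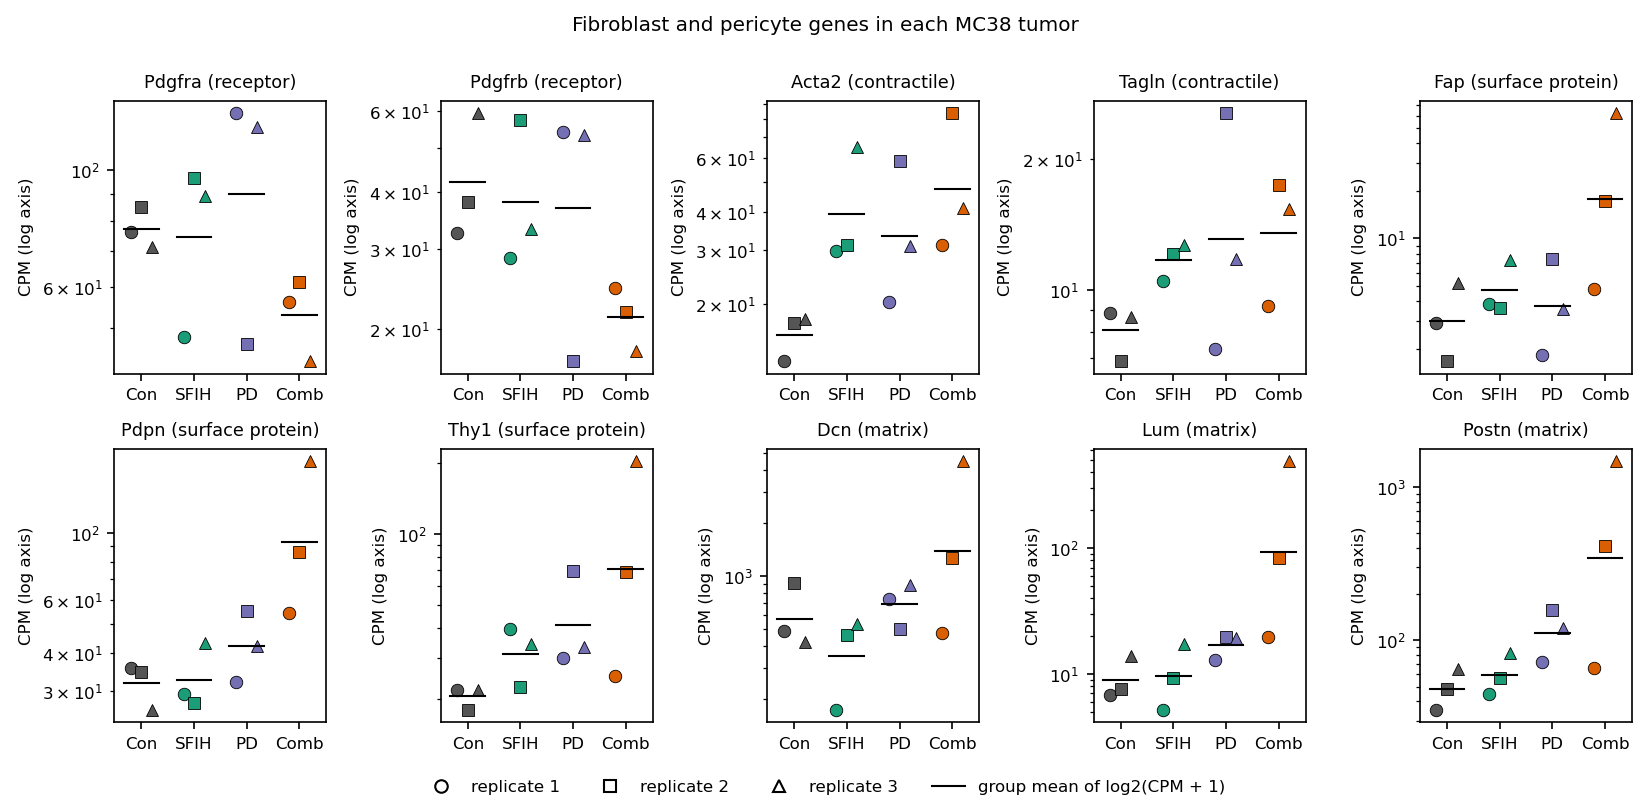
CPM of each member in each tumor on log axes, with 1 panel per gene, symbols for the replicates and a line for the group mean of log2(CPM + 1). Acta2 and Thy1 have all treated tumors above Con, the receptor genes have their lowest group mean in Comb, and the third Comb tumor is highest for Fap, Pdpn, Thy1, Dcn, Lum and Postn.

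The matrix genes Lum and Postn held the widest range over tumors of the 10 members, 93.6-fold and 41.6-fold from lowest to highest. Dcn encodes decorin, a small leucine-rich proteoglycan that binds collagen fibrils, and had 487, 908 and 418 CPM in the Con tumors. SFIH tumors had 174, 459 and 530, PD tumors 740, 501 and 891, and Comb tumors 477, 1267 and 4512. Its Con and Comb ranges overlapped, because the first Comb tumor was below the Con median. Lum encodes lumican, another collagen-binding proteoglycan of that family. Its CPM was 6.84, 7.60 and 13.8 for Con, 5.22, 9.32 and 17.3 for SFIH, 12.8, 19.8 and 19.3 for PD, and 19.5, 82.8 and 488 for Comb. All 3 Comb tumors were above all Con and all SFIH tumors, and the highest PD tumor was just above the lowest Comb tumor. Postn encodes periostin, a matricellular protein that links collagen and integrins, and measured 35.4, 48.0 and 65.3 CPM for Con. SFIH tumors gave 44.9, 56.4 and 82.8, PD tumors 72.6, 159 and 120, and Comb tumors 66.3, 411 and 1473. The PD and Comb tumors were all above the Con tumors, and the lowest of them, the first Comb tumor at 66.3 CPM, was close to the highest Con tumor.

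The third Comb tumor set much of the size of these values. It was 35.5 times the median of the other 11 tumors for Lum, 22.2 times for Postn, 16.2 times for Fap, 9.00 times for Dcn, 6.80 times for Thy1 and 4.83 times for Pdpn. For Acta2 and Tagln it ranked 4 and 3 from the top, for Pdgfrb 11, and for Pdgfra it was the lowest of the 12. The second Comb tumor, in which skeletal muscle markers were at 12.9 CPM and below all 3 Con tumors, was 3.07 log2 units above the Con mean for both Lum and Postn. Its adipocyte markers were at 677 CPM, above the 148 to 288 of Comb replicate 1 and the Con, SFIH and PD tumors, and Rn45s took 14.1% of its counts. The part of either in these values was not tested. The first Comb tumor, with 873 CPM of skeletal muscle markers, was 1.04 above for Lum and 0.46 above for Postn, and differed by -0.26 for Dcn. The ratio of Postn to Pdgfra counts, read only for how it differed between tumors, was 0.465 to 0.913 for Con tumors and 0.586 to 0.932 for SFIH tumors. PD tumors had 0.566, 3.40 and 0.992, and Comb tumors 1.18, 6.73 and 34.1. All Comb tumors were therefore above all Con and SFIH tumors on this ratio, and PD replicate 2 lay between the first and second Comb tumors.

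**Figure D3:**
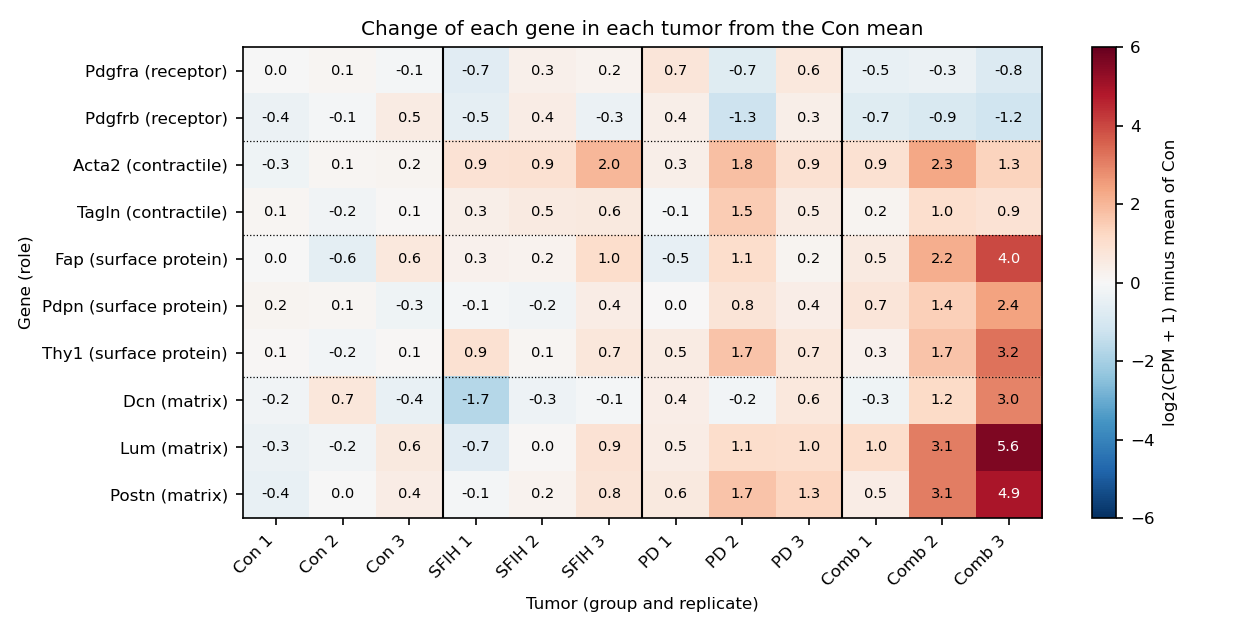
Difference of each tumor from the mean of the Con tumors in log2(CPM + 1), with members in rows and tumors in columns, red above and blue below the Con mean. Comb replicates 2 and 3 are red for all but the receptor genes, while the first Comb tumor is at most 1.04 above.

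Promoter sequence was at hand for 4 of the 10 members, Pdgfra, Acta2, Pdpn and Postn, from the RefSeq table of build GRCm38.p6. The windows of Acta2 and of the second Postn start are shown because Acta2 was higher in all 9 treated than in all 3 Con tumors and Postn had one of the largest estimates in Comb against Con. Each is the 250 bases before the start, 5′ to 3′ on the gene's strand, with motif matches in capitals. Acta2 lies at chr19:34255374-34255623 on the minus strand and Postn at chr3:54360857-54361106 on the plus strand.
Acta2: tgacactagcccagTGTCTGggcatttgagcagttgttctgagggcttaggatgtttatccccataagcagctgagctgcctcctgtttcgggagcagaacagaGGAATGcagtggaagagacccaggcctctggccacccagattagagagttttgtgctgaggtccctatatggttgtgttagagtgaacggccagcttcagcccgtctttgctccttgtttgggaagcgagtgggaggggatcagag
Postn: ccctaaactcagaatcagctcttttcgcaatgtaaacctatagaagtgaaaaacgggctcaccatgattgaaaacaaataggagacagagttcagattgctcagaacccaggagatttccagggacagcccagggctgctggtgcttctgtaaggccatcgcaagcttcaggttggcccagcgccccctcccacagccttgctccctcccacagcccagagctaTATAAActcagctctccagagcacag
The letters searched on both strands were the serum response element known as the CArG box (CC, then 6 bases of A or T, then GG), TATAAA of the TATA box, CATTCC of the MCAT element bound by TEAD factors and CAGACA of the SMAD element. Only exact letters were counted. The Acta2 window held 1 match to CATTCC and 1 to CAGACA, both read on the opposite strand, at 146 and 236 bases before the start. Its stretches ccctatatgg and ccttgtttgg, each 1 base from the CArG letters, were therefore not counted. The Postn window held TATAAA at 26 bases before the start. Of 32851 promoter windows of the same length, 1.47% held the CArG letters, 12.4% TATAAA, 12.6% CATTCC and 17.1% CAGACA. The first Postn window and those of Pdgfra and Pdpn held none of the 4 motifs. A match is a description of the letters and not a bound site.

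In the edgeR fit across all genes, no member was called in Comb against Con, although 8 of 10 had higher estimates than Con. edgeR's quasi-likelihood test with Benjamini-Hochberg adjustment, at a threshold of 0.05, called 0 of the 10 members and 0% of the 13464 tested genes. At an unadjusted p under 0.05 it counted 8 of 10 members, against 25.3% of all genes. DESeq2 called 7 of the 10, all higher and all except Pdgfra, Pdgfrb and Tagln, against 13.8% of the 14926 genes to which it gave an adjusted p. Shares of genes beside DESeq2 counts are over such genes throughout, and their number differed between comparisons. The log2 fold changes by edgeR were 4.85 ± 1.07 for Lum, 4.16 ± 0.94 for Postn, 3.54 ± 0.94 for Fap, 2.67 ± 0.70 for Thy1, 2.19 ± 0.78 for Dcn and 2.06 ± 0.48 for Pdpn. Their edgeR adjusted p were 0.0665, 0.0665, 0.0686, 0.0686, 0.116 and 0.0665. The median of the 10 was 2.13, against -0.03 over all genes, and 1.36 without the third Comb tumor.

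Leaving out 1 Comb tumor moved the estimates and the number of calls. Without the third, the log2 fold changes were 2.69 ± 0.62 for Lum, 2.52 ± 0.62 for Postn, 1.99 ± 0.70 for Fap, 1.40 ± 0.47 for Thy1, 1.32 ± 0.34 for Pdpn and 0.73 ± 0.53 for Dcn. edgeR then called 0 of 10 members in Comb against Con, PD and SFIH, any anti-PD-1 and any SFIH alike, with 0.0367%, 0%, 0%, 0.0147% and 0% of genes called. DESeq2 without the third tumor called 5 of 10 in Comb against Con, namely Acta2, Pdpn, Thy1, Lum and Postn, against 5.07% of genes. Without the first Comb tumor, edgeR called 8 of 10, all but the receptor genes, against 28.5% of genes. The common dispersion of the edgeR fit was 0.1585 with all tumors, 0.122 without the first Comb tumor and 0.0682 without the third.

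On CPM alone, 6 members did not overlap between Comb and Con with Comb higher, which were Acta2, Lum, Pdpn, Postn, Tagln and Thy1, against 7.6% of tested genes. Pdgfra and Pdgfrb did not overlap with Comb lower, a pattern of 22.2% of tested genes. Leaving out the TMM factors, as these CPM do, moved the median of all genes by -0.25 on the log2 scale in this comparison. Fap joined the higher members with normalization factors applied. The replicate error of the members differed widely, since the SD of log2(CPM + 1) over the 3 Comb tumors was 2.29 for Lum and 2.24 for Postn but 0.45 for Tagln and 0.22 for Pdgfrb.

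**Figure D4:**
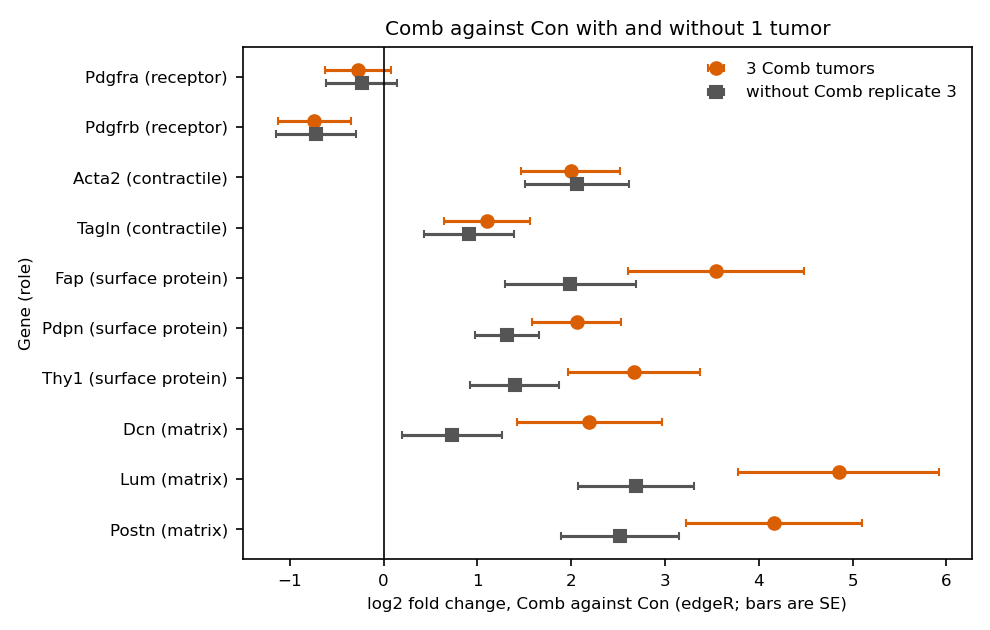
log2 fold change of Comb against Con by edgeR for each member, with SE bars, from all 3 Comb tumors (circles) and without the third (squares). Lum moves from 4.85 to 2.69 and Dcn from 2.19 to 0.73, while Acta2 is at 2.0 and 2.06 and the receptor genes move by less than 0.05.

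Each agent alone was then compared with Con. SFIH against Con called 0 of 10 members by edgeR, with 0% of genes called, and 0 by DESeq2, with 0.0105%. One member, Acta2, had an unadjusted p under 0.05, against 2.25% of genes. Acta2, Tagln and Thy1 were higher without overlap, against 7.55% of genes, and no member was lower without overlap, against 8.85%. Under normalization factors 2 of these remained, and Thy1 overlapped. The median log2 fold change of the members was 0.28, with 8 estimates above 0 and 2 below, against 0.02 over all genes. It was -0.04 without SFIH replicate 3, the SFIH tumor with the most Acta2, Fap, Lum and Postn. Dcn was the member furthest below Con under SFIH, at -0.63 ± 0.75, and at -0.27 without SFIH replicate 1.

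PD against Con also called 0 of 10 members by edgeR (0% of genes) and by DESeq2 (0.0105%). Here too Acta2 alone had an unadjusted p under 0.05, against 3.99% of genes. Acta2, Postn and Thy1 were higher in every PD tumor than in every Con tumor, against 5.76% of genes, and none was lower, against 14.8%. All 10 estimates were above 0, or 9 without TMM factors because Pdgfrb fell below, with a median of 0.76 against 0.01 over all genes. Postn differed by 1.36 ± 0.84, Thy1 by 1.22 ± 0.68, Tagln by 1.0 ± 0.46 and Lum by 0.99 ± 0.94, each with an edgeR adjusted p of 1.0. PD replicate 2 stood out within its group, as it was the highest PD tumor for 7 members among the contractile, surface and matrix genes and the lowest for both receptor genes and Dcn. It also had the highest share of Rn45s and the fewest counts of the 12 tumors, whose part in these values was not tested. Without it the estimates were 1.01 for Postn, 0.66 for Thy1, 0.28 for Tagln and 0.83 for Lum. Without PD replicate 1, 6 members did not overlap with Con in either direction, against 29.5% of genes. SFIH and PD share their Con tumors, so their values against Con are not independent.

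The Comb tumors were next compared with each single agent. Against PD, edgeR called 0 of 10 members (0% of genes), 5 had an unadjusted p under 0.05 (18% of genes), and DESeq2 called Fap, Lum and Postn (2.81% of genes). No member was without overlap in either direction, against 4.25% of genes higher and 8.42% lower. The estimates were 3.86 ± 1.02 for Lum, 3.03 ± 0.92 for Fap and 2.80 ± 0.88 for Postn, and 1.69, 1.48 and 1.16 without the third Comb tumor. The median of the members was 1.49, and 0.59 without that tumor, where DESeq2 called 0 of 10 members against 0.314% of genes. Without the first Comb tumor, edgeR called 6 of 10, which were Fap, Pdpn, Thy1, Dcn, Lum and Postn, against 15.2% of genes, and 5 members did not overlap in either direction, against 48.2% of genes. Without PD replicate 2, 6 members did not overlap, against 34.6% of genes.

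Against SFIH, edgeR called 0 of 10 members (0% of genes), 6 had an unadjusted p under 0.05 (19% of genes), and DESeq2 called 6, all surface and matrix genes (7.78% of genes). Lum and Pdpn were higher without overlap, against 4.65% of genes, and Pdgfrb was lower without overlap, against 14.9%. The estimates were 4.64 ± 1.06 for Lum, 3.82 ± 0.92 for Postn, 2.83 ± 0.79 for Dcn and 2.0 ± 0.48 for Pdpn. They were 2.48, 2.19, 1.37 and 1.26 without the third Comb tumor, and DESeq2 then called only Lum and Pdpn, against 0.687% of genes. The median of the members was 2.02, and 1.01 without that tumor. Without the first Comb tumor, edgeR called the same 6 genes as DESeq2, against 22.5% of genes, and 8 members did not overlap in either direction, against 59.9% of genes. Without SFIH replicate 3, 6 members did not overlap, against 37.4% of genes. The contractile genes had smaller estimates between Comb and either single agent, with 0.68 ± 0.51 for Acta2 against PD and 0.57 ± 0.51 against SFIH, and 0.10 ± 0.45 and 0.56 ± 0.45 for Tagln. Leaving out each tumor in turn, the Acta2 estimates ran from 0.16 to 1.26 against PD and from 0.055 to 1.12 against SFIH.

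With the groups arranged as 6 tumors with anti-PD-1 antibody and 6 without, edgeR called 0 of 10 members (0% of genes), 8 had an unadjusted p under 0.05 (18.7% of genes), and DESeq2 called the 6 surface and matrix genes (8.62% of genes). Lum differed by 2.82 ± 0.70 and Postn by 2.59 ± 0.62, or by 1.74 and 1.77 without the third Comb tumor. DESeq2 called 4 members without the third Comb tumor (6.66% of genes), and edgeR called 6 without the first (17.1% of genes). For SFIH against no SFIH, edgeR called 0 (0% of genes), 5 had an unadjusted p under 0.05 (14.5% of genes), and DESeq2 called Lum alone (1.59% of genes). DESeq2 called 0 members there without the third Comb tumor (3.26% of genes) and edgeR called 2 without the first (2.03% of genes). The interaction, which asks whether both agents together differ from the sum of each, called 0 members by edgeR (0% of genes), and 3 had an unadjusted p under 0.05 (2.55% of genes). Those were Lum at 3.64 ± 1.35, Dcn at 2.52 ± 1.07 and Pdpn at 1.46 ± 0.66, and 1.48, 1.06 and 0.73 without the third Comb tumor. Thy1 changed sign in the interaction without that tumor, from 0.81 to -0.45, as did Dcn for SFIH against no SFIH, from 0.63 to -0.10. DESeq2 called no member for the interaction either, against 0.00526% of genes.

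The members differed in how they varied together over the 12 tumors. The receptor genes had a negative correlation with each of the other 8 members in all 16 pairs on log2(CPM + 1), and the other 29 pairs were positive. Pdgfra and Pdgfrb had a Pearson's r of 0.83 and a Spearman's rho of 0.79, with permutation p adjusted over 45 pairs of 0.00502 and 0.0198. Their r was 0.77 without the 2 tumors farthest from the median of Pdgfra and 0.81 within groups. Acta2 and Tagln had an r of 0.82 and a rho of 0.90, with adjusted permutation p of 0.00479 and 0.00495, an r of 0.83 without the 2 farthest tumors and 0.78 within groups. Without the third Comb tumor, r of Acta2 was 0.82 with Tagln, 0.84 with Fap, 0.82 with Thy1 and 0.21 with Dcn. The contractile pair was therefore not a block of its own there. Lum and Postn had an r of 0.98 and a rho of 0.94, with adjusted permutation p of 0.00045 and 0.0027. That r was 0.84 without Comb replicates 2 and 3 and 0.97 within groups.

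Dcn followed the other matrix genes only in part. Its r with Lum was 0.87, with a rho of 0.56 and adjusted permutation p of 0.00479 and 0.0931, and 0.53 without the third Comb tumor and SFIH replicate 1. With Fap its r was 0.68 over 12 tumors but 0.17 without the third Comb tumor, so that relation rested on 1 tumor. With Pdgfra it was -0.08 over 12 tumors and 0.47 without the third Comb tumor, the larger of the 2 signs that changed among the 16 pairs with a receptor gene. Pdgfrb and Pdpn had the most negative relation, with an r of -0.75, a rho of -0.84, and adjusted permutation p of 0.00502 and 0.0159. Their r was -0.77 without the 2 farthest tumors and -0.58 within groups. Of the 45 pairs, 20 had an adjusted permutation p of r under 0.05. All pairs share the same libraries, so their correlations also carry what the libraries share.

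**Figure D5:**
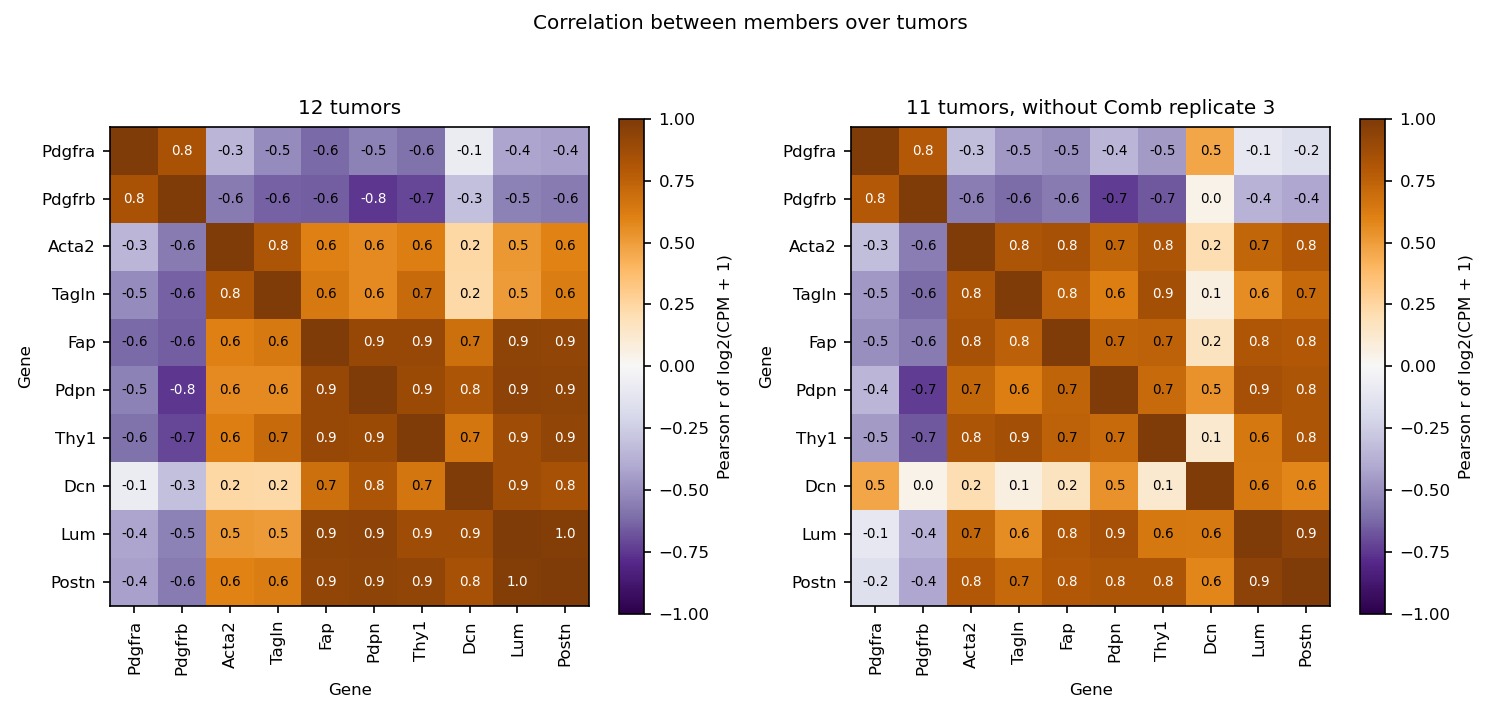
Pearson's r between members over 12 tumors (left) and over 11 tumors without the third Comb tumor (right), on log2(CPM + 1), with orange for positive and purple for negative. The receptor genes are purple against the other members in the left panel, and in the right panel r of Dcn is 0.17 with Fap and 0.12 with Thy1, against 0.54 with Pdpn.

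Lists of other stromal genes were compared between Comb and Con, where edgeR called no gene of any list. Over all genes, 48.0% of estimates were above 0, 25.3% had an unadjusted edgeR p under 0.05, and DESeq2 called 13.8%, or 5.07% without the third Comb tumor. Small leucine-rich proteoglycans other than Dcn and Lum numbered 10, of which 8 were tested, and all 8 were higher in Comb than in Con, with a median log2 fold change of 3.23, and 2.17 without the third Comb tumor. All 8 had an unadjusted p under 0.05, and DESeq2 called 6, or 4 without that tumor. Bgn, or biglycan, the most abundant, had 90.9, 114 and 110 CPM for Con and 68.0, 111 and 189 for SFIH. PD tumors had 132, 327 and 274, and Comb tumors 148, 557 and 1034. All PD and all Comb tumors were thus above all Con tumors. Of 35 tested fibroblast genes of 36 listed, 29 were higher and 6 lower in Comb, with a median of 2.01, and 0.91 without the third Comb tumor, and DESeq2 called 19 higher and 1 lower, or 8 and 1 without it. Among the most abundant, Col3a1, a fibrillar collagen, differed by 2.32 ± 0.64 and Col1a2 by 2.55 ± 0.70, or by 1.34 and 2.43 without the third Comb tumor, whereas Vim, the intermediate filament of mesenchymal cells, differed by 0.26 ± 0.20.

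The PDGF ligands included 4 genes, of which 3 were tested. Pdgfa, whose product binds the Pdgfra receptor, was at 64.5 to 116 CPM in 11 tumors and 10.5 in the third Comb tumor. Pdgfc was at 5.38 to 15.8 CPM in 11 tumors and 68.6 in the third Comb tumor, so these ligands differed in opposite directions in that tumor. Their log2 fold changes in Comb against Con were -0.53 ± 0.49 and 2.35 ± 0.77, and -0.06 and 0.68 without it. Pericyte genes numbered 16, all tested, with 13 higher and 3 lower in Comb and a median of 1.67, but 0.42 without the third Comb tumor. DESeq2 called 5 of them, or 2 without that tumor. The most abundant, Anpep, a membrane aminopeptidase, differed by 2.33 ± 0.88, and by 0.07 without that tumor. Ebf1, a transcription factor of stromal and B lineage cells, differed by 2.40 ± 0.61, or by 1.66 without it, while Mcam, a vessel adhesion molecule, differed by 0.34 ± 0.31 and Ndufa4l2, a mitochondrial protein of pericytes, by -0.54 ± 0.41.

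Of 22 tested myofibroblast and contractile genes of 24 listed, 16 were higher and 6 lower in Comb, with a median of 1.07, and 0.73 without the third Comb tumor, and DESeq2 called 9, or 3 without it. Of the 4 most abundant, Tpm1 differed by 0.33 ± 0.18, Cald1 by -0.25 ± 0.35, Tpm2 by -0.27 ± 0.24 and Tnc by -0.64 ± 0.38. Without the third Comb tumor these values were 0.19, 0.12, -0.41 and -0.96, so that Cald1 changed sign. All 3 Comb tumors were below all 3 Con tumors on CPM for Tpm2 and Tnc, as for 22.2% of tested genes, but both overlapped with TMM factors applied. Cald1 was at 255 CPM in the third Comb tumor and at 907 or more in the other Comb and the Con tumors. The relatives of Fap among the prolyl peptidases, Dpp4, Dpp8, Dpp9 and Prep, had estimates of 3.09 ± 0.87, 0.39 ± 0.20, -0.22 ± 0.27 and -0.52 ± 0.24, and DESeq2 called Dpp4 alone. Without the third Comb tumor the 4 estimates were 1.75, 0.19, -0.05 and -0.29, and DESeq2 called none. Among 9 matricellular genes beside Postn, 7 were higher and 2 lower in Comb, with a median of 1.26, and 1.01 without the third Comb tumor, and DESeq2 called 4, or 0 without it. Sparc, which binds collagen and calcium, differed by 2.01 ± 0.55 and Spp1, or osteopontin, by -0.58 ± 0.56, against 1.11 and -0.08 without that tumor. Spp1 was at 89.4 CPM in the third Comb tumor against a Con mean of 1111. Of 17 tested inflammatory fibroblast genes of 18 listed, 12 were higher and 5 lower, with a median of 0.72, and 0.82 without the third Comb tumor, and DESeq2 called 7 higher and 1 lower, or 6 and 1 without it.

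All genes were then ranked by how closely they followed the members. Among 10598 genes with a mean of at least 50 counts, the 5 with the highest Pearson's r to the mean standardized level of the 10 members over 12 tumors were Cygb, Gpx3, Col5a2, Adamts2 and Prelp, with r of 0.975 to 0.981. Without Comb replicates 2 and 3, r for the same genes was 0.908 to 0.928. Cygb encodes cytoglobin, Col5a2 a fibrillar collagen, Adamts2 a procollagen peptidase and Prelp a leucine-rich proteoglycan. For single members the nearest genes were Igf1 and Grb10 for Postn, with r of 0.990 and 0.989, Fbln7 and Fcgrt for Lum, with 0.988 and 0.986, and Prss23 and Enpp1 for Fap, with 0.978 and 0.969. Pdpn had Ccl6 and Ccr3 nearest, with 0.987 and 0.982, both of which are chemokine genes or receptors of myeloid cells. The nearest genes to the receptors were Styx and Irf9 for Pdgfra, with 0.927 and 0.910, and Prkcdbp and Zcchc24 for Pdgfrb, with 0.936 and 0.933. Igf1, a growth factor that fibroblasts and macrophages make, read 6.57 to 10.4 CPM for Con and 5.95 to 22.0 for SFIH, whereas PD tumors had 11.8 to 60.2 and Comb tumors 21.6, 320 and 1335. It therefore had the same order of the Comb tumors as Postn. These genes were ranked by maximum over many candidates, so no test is given.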

How the data were processed

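RNA from 12 tumors was made into QuantSeq 3′ mRNA libraries, which give reads near the 3′ end of each transcript and so no length scaling. The authors deposited raw counts per gene symbol. The aligner, genome build, annotation and counting tool are not given in the sources used here, nor is strand use. Levels are CPM, the count scaled to a library total of 1000000, on a log2 scale with a pseudocount of 1. Main tests were edgeR 4.0.16 quasi-likelihood (filterByExpr, TMM factors, 1 fit over all 12 tumors and 4 groups, 8 contrasts, R 4.3.3), with Benjamini-Hochberg adjustment over 13464 genes at 0.05. DESeq2 1.42.0 was the alternative, with shares of genes over the 7957 to 19008 to which it gave an adjusted p in each comparison. Fits that leave out a tumor were filtered anew, so their shares are over the genes tested there. The others were no TMM factors, no filter on low counts, a replicate block, only the groups compared, leaving out each tumor and a pseudocount of 0.1. DESeq2 without the third Comb tumor was added after seeing the data. On simulated data for Comb against Con with 200 of 13464 genes changed 4-fold, 62% were recovered by edgeR (5 false calls) and 69% by DESeq2 (26 false calls). The simulation gave all genes the same dispersion and held no outlying tumor. These rates therefore do not give the recovery or the false calls in the real tumors. Correlations used two-sided permutation tests with 100000 resamples. Tumors were permuted without regard to group, so these p-values also take in differences between groups. The table pairs no symbols with positions, so members carry no coordinates apart from the RefSeq promoters. Of 17 other gene lists with 220 entries, 219 were found.

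All 10 members are named. Of each other list the 4 genes with the highest mean CPM were eligible to be named, and 5 genes nearest the members' mean with 2 per member. The members and the lists were chosen with earlier results of these data known. Nothing in the labels says that tumors of a group came from separate experiments, so p-values measure the spread between these tumors. Without TMM factors the median of all genes moved by -0.26 to 0.01 on the log2 scale over the 8 contrasts, most in those with Comb. Same-numbered tumors of different groups deviated from their group means with r of -0.286 to 0.414, so the numbers did not pair the tumors.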

Additional observations from a re-analysis of the deposited data

How the results depend on the processing

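In SFIH against Con, PD against Con and the interaction, 0 members were called under each alternative run, DESeq2 included. DESeq2 called 7 members in Comb against Con, 3 against PD, 6 against SFIH, 6 for any anti-PD-1 and 1 for any SFIH. In the same order it called 13.8%, 2.81%, 7.78%, 8.62% and 1.59% of genes. Without the third Comb tumor, an alternative added after seeing the data, DESeq2 called 5, 0, 2, 4 and 0 members. The shares of genes called there were 5.07%, 0.314%, 0.687%, 6.66% and 3.26%. The median member change was then 0.61 against PD and 1.03 against SFIH. Leaving out each tumor in turn, edgeR called 0 to 8 members against Con, 0 to 6 against PD, 0 to 6 against SFIH, 0 to 6 for any anti-PD-1 and 0 to 2 for any SFIH. Each upper value came without the first Comb tumor, where edgeR called 28.5%, 15.2%, 22.5%, 17.1% and 2.03% of genes in the same order. Members without overlap numbered 3 to 6 in PD against Con, 0 to 6 in Comb against PD and 3 to 8 in Comb against SFIH, where the highest values came with 29.5%, 34.6% and 59.9% of all tested genes not overlapping. Medians ran from -0.042 to 0.54 in SFIH against Con, 0.59 to 1.92 in Comb against PD and 1.01 to 2.45 in Comb against SFIH. Some estimates changed sign. Without the third Comb tumor Thy1 was -0.45 in the interaction, against 0.81, and Dcn -0.10 for any SFIH, against 0.63. In SFIH against Con, leave-one-out ranges were -0.17 to 0.28 for Pdgfra, -0.45 to 0.12 for Pdgfrb, -0.25 to 0.20 for Pdpn, -0.42 to 0.56 for Lum and -0.024 to 0.54 for Postn. In PD against Con they were -0.22 to 0.38 for Pdgfrb and -0.21 to 0.96 for Fap, and in Comb against PD -0.23 to 0.80 for Tagln. The replicate block gave -0.011 for Pdgfra and -0.038 for Pdpn in SFIH against Con and called 0 members in all 8 comparisons. Only 2 of 12 tumors were most like their own number in another group. With only the groups compared, Pdgfra was -0.0017 in SFIH and Pdgfrb -0.0019 in PD, each against Con. Without TMM factors, Pdgfrb was -0.060 in PD against Con and Tagln -0.083 in Comb against PD, and Tagln was -0.067 there by DESeq2 without the third Comb tumor. The cause was not tested. Depth limits Fap most, at 16 to 52 counts in Con.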

Other observations

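Lists not described above gave the following values in Comb against Con, where edgeR called no gene and DESeq2 called 13.8% of all genes, or 5.07% without the third Comb tumor. Endothelial markers, 12 genes led by Pecam1, summed to 132 to 200 CPM in Con and 177 to 225 in Comb. Of them, 11 had higher and 1 a lower estimate, with a median log2 fold change of 0.86, and 0.68 without the third Comb tumor, and DESeq2 called 3, or 0 without it. Pecam1 differed by 1.09 ± 0.33, whereas Egfl7 differed by 0.02 ± 0.23. Schwann and neural markers, of which 6 of 8 were tested, summed to 106 to 209 CPM in Con and 138 to 180 in Comb, and DESeq2 called 1, or 0 without the third Comb tumor. Of T cell markers, 12 of 12 had higher estimates and DESeq2 called 7, or 2 without that tumor, and of macrophage markers 12 of 12 were higher and DESeq2 called 12, or 7 without it. Of 13 skeletal muscle markers DESeq2 called 12, or 2 of the 8 to which it gave an adjusted p without the third Comb tumor. It called 5 of 8 adipocyte markers, or 2 of 7 without that tumor, and 5 of the 8 epithelial markers with an adjusted p, or 0 of 9 without it. It called 2 of 4 lymphatic markers, or 0 without the third Comb tumor. Of the 4 keratinocyte markers tested by edgeR, DESeq2 gave an adjusted p to 1 and did not call it, and without the third Comb tumor it gave one to all 4 and called 0.

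In PD against Con, neither edgeR nor DESeq2 called a gene of these lists, and 51.7% of all genes had higher estimates. So did 32 of 35 fibroblast genes and 8 of 8 tested proteoglycans other than Dcn and Lum, with medians of 0.61 and 1.39. Of those, 10 fibroblast genes and 6 proteoglycans were higher in every PD tumor than in every Con tumor, a pattern of 5.76% of all tested genes. In SFIH against Con the same lists had 23 of 35 and 5 of 8 higher, against 53% of all genes, with medians of 0.13 and 0.40. The pericyte list had a median of -0.14 under SFIH and 0.46 under PD.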
